A study of Mus musculus with 2 samples.

Results

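The bone morphogenetic protein (BMP) ligand genes Bmp2, Bmp4 and Bmp7, the receptor genes Bmpr1a, Bmpr1b and Bmpr2 and the target genes Id1, Id2, Id3 and Id4 were followed across the cell classes of the mouse ciliary body. These 10 genes were taken by symbol from the 33456 genes of the count matrices, and all 10 were found in both libraries. They were measured in 2 single-cell RNA libraries made in droplets from the ciliary epithelium of untreated wild-type C57BL/6 mice at postnatal day 35, with no treatment, genotype or time comparison. Library 1 pooled 3 sets of eyes, and library 2 pooled 3 sets by its description and 4 by its characteristics, so each library is a pool and n = 2 for every value. Every comparison below is therefore between cell classes of the same pools. With the overall difference between libraries taken out as a block, p-values rest on how unevenly classes varied between the 2 libraries. That spread was estimated over all classes of the fit, and p-values do not measure variation between mice.

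BMPs are secreted as dimers and bind a complex of type I receptors, such as BMPR1A and BMPR1B, and type II receptors, such as BMPR2. The receptors phosphorylate SMAD1, SMAD5 and SMAD9, which enter the nucleus with SMAD4 and raise transcription of target genes. The Id genes are among the best known of these targets. Their proteins lack a DNA-binding region and hold E proteins such as TCF3, TCF4 and TCF12 away from DNA. In the developing mouse eye, BMP4 and BMP7 are required for lens and optic cup formation, and BMP signalling is needed for the ciliary body to form. Id genes also respond to other signals, including serum factors and immediate early transcription factors.

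After filtering, 3865 cells were kept in library 1 and 5466 in library 2, with medians of 4128 and 2968 unique molecular identifiers (UMIs, each standing for a captured RNA molecule) per cell. Clustering on a random group of 16809 genes that held the cell type markers gave 26 clusters, which marker genes sorted into 22 classes. The 10 BMP genes lay among the 16647 held-out genes and took no part in forming the classes. Described here are 21 classes, each of 20 or more cells in both libraries, and a class name stands for a marker profile. All 12 markers of non-pigmented ciliary epithelium were detected in the class of that name, with summed levels of 3946 and 3812 CPM in libraries 1 and 2 (CPM are the UMIs of a gene in a class, scaled to the same total for every class and library). Its own markers were not its leading genes, since 1 of the 12, Col18a1, was among the 10 of largest fold. The pigmented epithelial class held all 14 of its markers, led by Dct, and also the smooth muscle marker Myh11, at 349 and 212 CPM. No marker list used here separates pigmented cells of the ciliary body from those of the iris. The pigmented layer below stands for this class. A class led by Tagln, Acta2, Cxcl12 and Edn3 is called smooth muscle-like. In it 4 smooth muscle markers counted, Acta2, Chodl, Lmx1b and Tagln, and so did 6 fibroblast markers. Myh11 stood at only 25.5 and 37.3 CPM there, against 1542 and 852 in the pericyte and smooth muscle class. The fibroblast marker Dcn stood at 7137 and 9277 CPM there, against 26337 and 16676 in fibroblasts. A pigment cell class with Mlana, Kit and Sox10 is called by those genes, and cluster 16, with photoreceptor genes, stayed unnamed. Of the deposited barcodes, 11 were shared between the libraries, and 8 of the kept ones. Doublets were not called.

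Some cells of the non-pigmented class carried markers of the pigmented layer, and this touches several results below. Of its 142 and 149 cells in libraries 1 and 2, 40 and 41 held more UMIs of pigmented than of non-pigmented markers, and they carried 44.9% and 48.4% of the UMIs of the class. Among these mixed-marker cells the largest held 62833 UMIs in library 1 and 65420 in library 2. No pigmented cell met the mirror rule. That rule is hard to meet, since Pmel alone, a melanosome gene, stood at 6725 and 3795 CPM in the pigmented class. Without the mixed-marker cells, Pmel stood at 15.04 and 60.4 CPM in the non-pigmented class, against 1078 and 927 with them. Pmel is itself among the pigmented markers of the rule, so its fall follows from the rule and says nothing further about the cells left. The levels of the 10 genes in this class and the calls that involve it are given with and without them, a choice made after the data were seen. Shares of UMIs and of cells, early-response sums, correlations and levels of other genes use all cells.

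The promoter windows below are shown for the ligand with the clearest layer difference, Bmp4, and for Id2 and Id3, since Id3 was called lower in retinal pigment than in pigmented epithelium and Id2 was not. Each is the 250 bases before the transcription start in RefSeq (build GRCm38.p6), read 5′ to 3′ on the gene's strand, and capitals mark GGCGCC, a palindrome of the GC-rich kind that BMP-activated SMADs bind.
Bmp4: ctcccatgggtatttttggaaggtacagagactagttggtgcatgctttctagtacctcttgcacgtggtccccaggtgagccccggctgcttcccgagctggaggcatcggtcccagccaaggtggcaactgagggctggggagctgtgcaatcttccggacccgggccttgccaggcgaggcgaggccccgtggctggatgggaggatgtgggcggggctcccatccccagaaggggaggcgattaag
Id2: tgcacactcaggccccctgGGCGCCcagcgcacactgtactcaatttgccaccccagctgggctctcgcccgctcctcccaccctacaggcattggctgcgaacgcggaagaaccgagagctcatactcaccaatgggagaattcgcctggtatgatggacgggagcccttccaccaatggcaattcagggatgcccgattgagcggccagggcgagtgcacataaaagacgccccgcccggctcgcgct
Id3: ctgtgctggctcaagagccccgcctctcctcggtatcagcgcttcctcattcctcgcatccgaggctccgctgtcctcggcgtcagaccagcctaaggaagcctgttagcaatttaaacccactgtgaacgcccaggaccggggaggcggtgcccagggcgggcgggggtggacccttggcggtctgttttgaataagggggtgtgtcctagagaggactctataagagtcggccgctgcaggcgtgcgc
The windows lie on chromosome 14 for Bmp4 (minus strand, 46390670 to 46390919), chromosome 12 for Id2 (minus strand, 25096093 to 25096342) and chromosome 4 for Id3 (plus strand, 136143572 to 136143821). In the annotation used for the gene positions at the end, Id2 spans 25093799 to 25097140 and Id3 spans 136143497 to 136145755. Their windows thus lie inside the annotated genes, while the Bmp4 window lies outside Bmp4 (46383520 to 46390669). The windows of Bmpr1a, Bmpr1b and Bmpr2 also lie inside their genes, and that of Id4 lies outside. The RefSeq table held windows for 7 of the 10 genes. GGCGCC stood once in the windows of Id2, Id4, Bmpr1a and Bmpr2, and was not in these letters for Bmp4, Id3 and Bmpr1b, whose 3 listed starts were all searched. Of 32841 RefSeq windows of the same length, 9.59% held it. The shorter GTCT or its reverse complement AGAC, the minimal SMAD-binding letters, stood in the Bmp4, Id2 and Id3 windows and in 82.9% of all windows. A match in letters describes the window and is not a binding site.

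The ligands were highest in the non-pigmented ciliary epithelium in both libraries. Bmp2, a secreted BMP known for driving bone and heart valve formation, had 194 and 318 CPM there in libraries 1 and 2 (exact Poisson 95% intervals 167 to 224 and 284 to 355), and 229 and 403 without the mixed-marker cells. It followed in pigmented epithelium at 117 and 146, retinal pigment epithelium at 103 and 70.0, and the pericyte and smooth muscle class at 42.0 and 39.8. The ranges of these first 4 classes did not overlap. Vascular endothelium (14.4 and 55.4), macrophages (15.8 and 37.9) and fibroblasts (5.93 and 19.2) came next, and their ranges overlapped. Neutrophils, B cells and Schwann cells held 0 Bmp2 UMIs in both libraries, which in neutrophils allows up to 39.5 and 61.5 CPM (3 counts per library).

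Bmp4, a BMP with many roles in eye and mesoderm development, had 183 and 179 CPM in non-pigmented epithelium, and 212 and 208 without the mixed-marker cells. Retinal pigment epithelium was next at 171 and 169, with ranges that did not overlap although the Poisson intervals did. Vascular endothelium (30.6 and 96.9), Schwann cells (25.2 and 74.6) and pigmented epithelium (31.8 and 60.3) overlapped with each other, and fibroblasts stood at 31.7 in both libraries. The fibroblast class was uneven. Its cluster 5, led by Mmp3 and Col3a1, had 74.6 and 52.0, against 9.76 and 26.3 in cluster 3 and 14.6 and 32.1 in cluster 4.

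Bmp7, which in mice is needed for eye and kidney development, had 246 and 167 CPM in non-pigmented epithelium, and 224 and 212 without the mixed-marker cells. It stood at 98.4 and 80.6 in retinal pigment epithelium, at 64.8 and 66.3 in pigmented epithelium and at 40.5 and 27.4 in the rod and cone bipolar cell class. The ranges of these 4 classes did not overlap. Fibroblasts held 2.88 and 3.79, and class II-rich cells, Schwann cells, B cells and neutrophils held 0 UMIs in both libraries. In UMIs, the non-pigmented class held 34.2% and 38.2% of all Bmp2 UMIs of the kept cells and 44.5% and 29.2% of those of Bmp7, while retinal pigment epithelium held the most of Bmp4, at 34.7% and 32.2%.

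The share of cells with a UMI was also compared. Bmp2 UMIs were seen in 50% of non-pigmented cells in library 1 (exact Clopper-Pearson 95% interval 41.5% to 58.5%) and in 49.7% in library 2 (41.4% to 58.0%). Pigmented cells gave 34.3% and 40.0%, and retinal pigment epithelial cells 33.6% and 19.9%. Rods, which should lack the ligands and serve as the background of free RNA, gave 0% of 171 cells, which allows up to 2.13% by the exact interval, and 1.36% of 884 cells. Median depths were 3305 and 2721 UMIs in non-pigmented cells and 961 and 1154.5 in rods. With every cell thinned to 1000 UMIs, the Bmp2 shares were 18.6% and 23.6% in non-pigmented cells, 6.50% and 12.5% in pigmented cells, and 0% and 1.23% in rods. Thinning left out 13 and 22 non-pigmented cells and 94 and 317 rods. Thinned shares for non-pigmented cells were 14.0% and 14.96% for Bmp4 and 21.7% and 15.7% for Bmp7, against at most 0.353% in rods for both genes. All intervals cover counting error only.

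**Figure D1:**
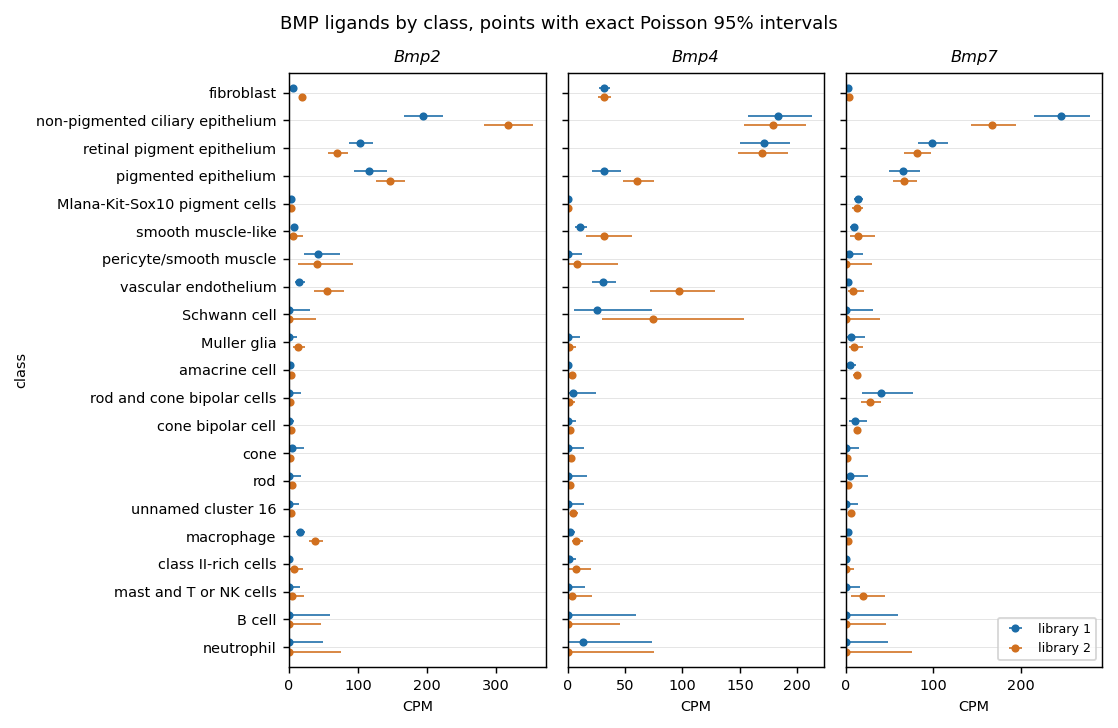
CPM of Bmp2, Bmp4 and Bmp7 (linear horizontal axes) in each of the 21 classes, with library 1 in blue and library 2 in orange and bars for exact Poisson 95% intervals of the counts. Non-pigmented ciliary epithelium is highest in all 3 panels and both libraries, at 194 and 318 for Bmp2.

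The receptors were spread differently from the ligands. Bmpr1a, the type I receptor for BMP2 and BMP4 found in most tissues, was broad, with 91.9 and 116 CPM in pigmented epithelium, 94.6 and 103 in smooth muscle-like cells, 83.8 and 91.6 in cones and 71.5 and 77.6 in fibroblasts. The first 13 of 21 classes in its order overlapped with their neighbours. It was low in class II-rich cells at 5.46 and 2.36 and in macrophages at 8.52 and 15.1. Non-pigmented epithelium, the class richest in ligand RNA, stood at 63.2 and 88.4, overlapping with fibroblasts, and at 60.1 and 70.1 without the mixed-marker cells.

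Bmpr1b, the other type I receptor, known for its role in cartilage and in retinal patterning in mice, was sparse, with 93 and 134 UMIs in all kept cells of libraries 1 and 2. Muller glia, the radial glia of the retina, were highest at 38.7 and 44.7 CPM (13 and 33 UMIs). The pericyte and smooth muscle class followed at 17.5 and 15.9 (5 and 2 UMIs) and smooth muscle-like cells at 15.1 and 14.4 (29 and 5 UMIs). These ranges did not overlap, but with so few UMIs the order of the last 2 classes is uncertain. Cone bipolar cells stood at 12.4 and 6.92 and fibroblasts at 4.06 and 7.85. Non-pigmented epithelium had 6.22 and 5.03, and 11.3 and 7.79 without the mixed-marker cells, from 10 UMIs in all. Vascular endothelium held 0 UMIs in both libraries, which allows up to 2.55 and 5.93 CPM.

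Bmpr2, the type II receptor that is mutated in heritable pulmonary arterial hypertension, was highest in vascular endothelium at 365 and 227 CPM. Every other class lay between 0 and 125 in both libraries. Pigmented epithelium had 107 and 83.4, fibroblasts 86.0 and 96.6, and non-pigmented epithelium 73.6 and 48.2, or 71.4 and 40.9 without the mixed-marker cells. Of the tests of each class against the mean of the other classes, Bmpr2 passed in vascular endothelium, where the log2 fold change was 2.29 (SE 0.19, adjusted p = 1.08e-11, edgeR), and in no other class. In that test 16.7% of the 6832 tested genes were higher in vascular endothelium.

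**Figure D2:**
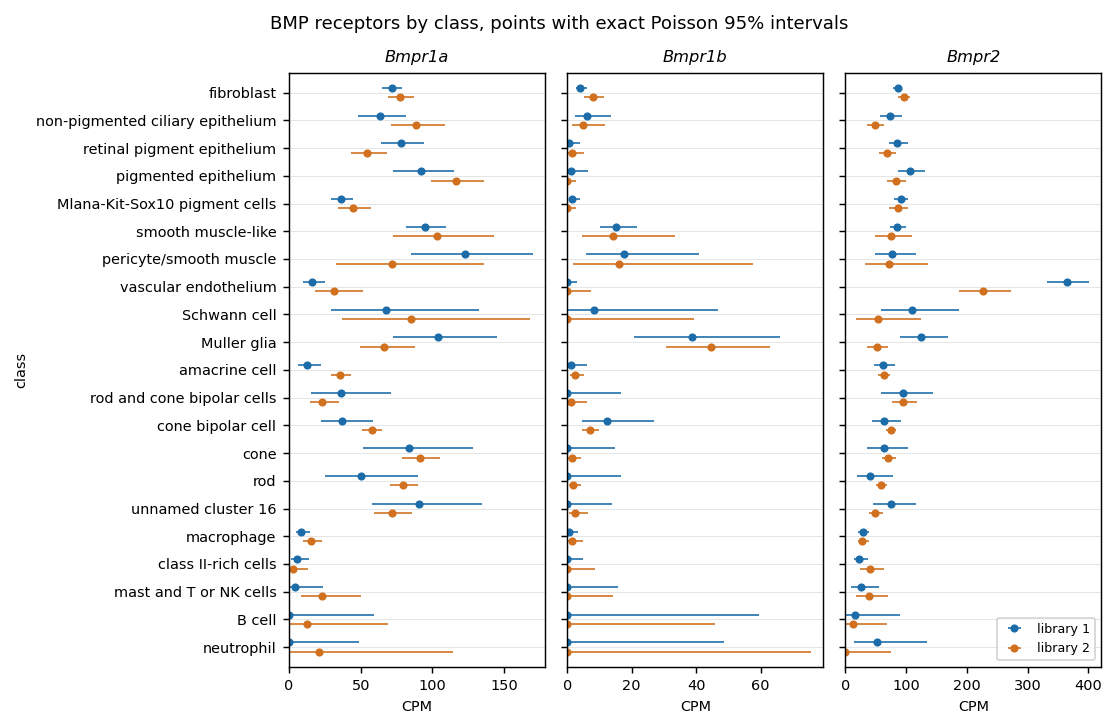
CPM of Bmpr1a, Bmpr1b and Bmpr2 (linear horizontal axes, each panel on its own scale) in each of the 21 classes, with library 1 in blue, library 2 in orange and exact Poisson 95% intervals. Bmpr1a is broad, Bmpr1b is highest in Muller glia at 38.7 and 44.7, and Bmpr2 in vascular endothelium at 365 and 227.

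None of the 4 Id genes was highest in the non-pigmented class, where the ligands were. Id1, which holds back differentiation and is a direct BMP target in endothelium, was highest in vascular endothelium at 477 and 443 CPM. Pericyte and smooth muscle cells (248 and 422), pigmented epithelium (262 and 391), neutrophils (211 and 431), fibroblasts (308.4 and 311), Muller glia (309 and 278) and smooth muscle-like cells (245 and 287) overlapped with their neighbours below it. Non-pigmented epithelium had 145 and 144 with all cells, and 101 and 58.4 without the mixed-marker cells. Within fibroblasts, clusters 3 and 4 had 431 and 387 in library 1 and 329 and 336 in library 2, against 78.8 and 128 in cluster 5.

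Id2, known in immune cells for its need in lymphoid development, was highest in pigmented epithelium at 426 and 436 CPM, above the overlapping group of smooth muscle-like cells (273 and 342), mast and T or NK cells (351 and 238) and fibroblasts (253 and 328). Retinal pigment epithelium had 311 and 232. Non-pigmented epithelium had 163 and 146 with all cells and 33.8 and 37.0 without the mixed-marker cells, which is a change of more than 1.5 times. The level of Id2 in this class therefore rests on those cells.

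Id3 had its highest levels in stromal and contractile classes. Smooth muscle-like cells had 4899.85 and 3915 CPM, fibroblasts 3068 and 4092, and the pericyte and smooth muscle class 2766 and 4339, with overlapping ranges. Pigmented epithelium followed at 2703 and 2612 and vascular endothelium at 2562 and 2343. Non-pigmented epithelium had 1624 and 1348, or 1334 and 979.9 without the mixed-marker cells. Retinal pigment epithelium was low at 359 and 341. Id3 UMIs were seen in 8.77% and 29.3% of rods, so low levels of Id3 in any class cannot be told apart from free RNA.

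Id4, which in the nervous system acts in neural precursors and glia, had a pattern of its own. Amacrine cells, the inhibitory interneurons of the retina, were highest at 140 and 132 CPM. Within them, cluster 15, led by Cartpt, Gad1, Tac2 and Sst, had 217 and 197, against 9.02 and 11.1 in cluster 19, led by the glycine transporter gene Slc6a9. The pericyte and smooth muscle class had 69.9 and 119, the Mlana-Kit-Sox10 pigment cells 55.8 and 61.0, and Muller glia 53.5 and 37.9. Both ciliary layers were near the floor, with 6.22 and 5.03 in non-pigmented (11.3 and 1.95 without the mixed-marker cells) and 2.36 and 7.45 in pigmented epithelium.

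**Figure D3:**
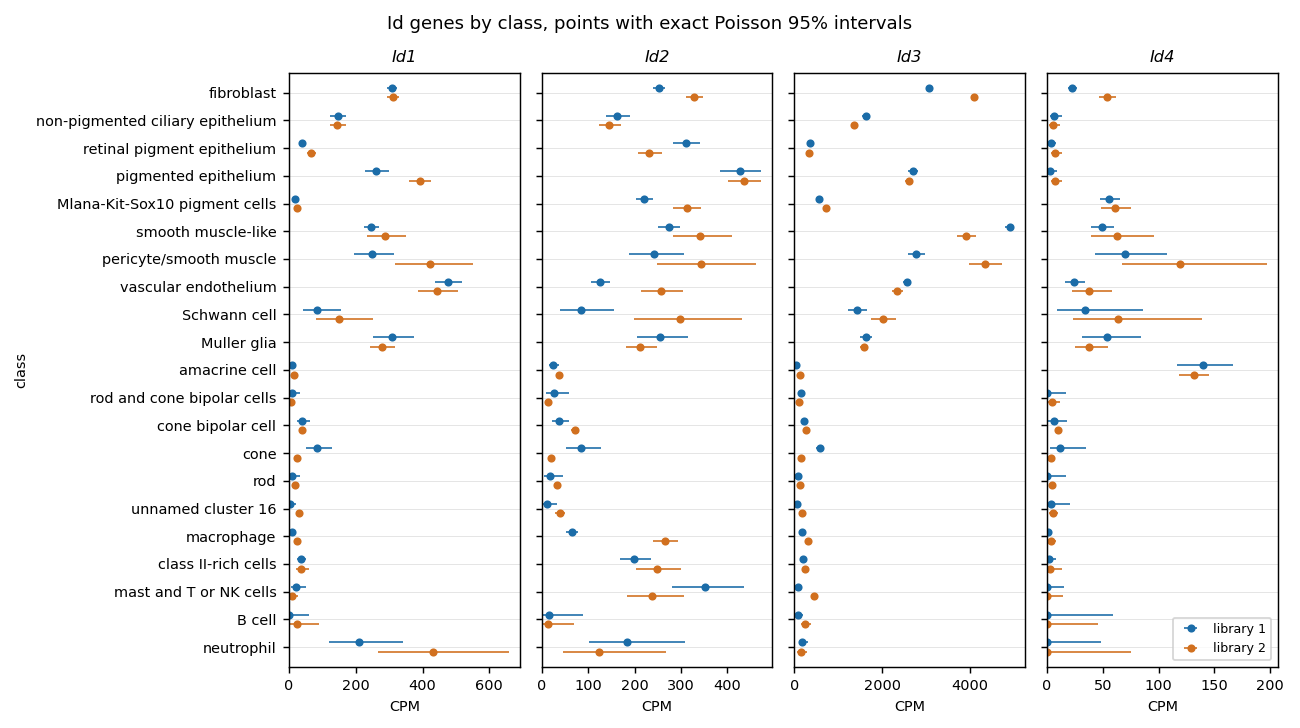
CPM of Id1, Id2, Id3 and Id4 (linear horizontal axes, each panel on its own scale) in each of the 21 classes, with library 1 in blue, library 2 in orange and exact Poisson 95% intervals. Vascular endothelium leads for Id1, pigmented epithelium for Id2, stromal and contractile classes for Id3 and amacrine cells for Id4.

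The first comparison set the non-pigmented class, the inner layer of the ciliary epithelium, against the pigmented class, which may also hold iris cells. The non-pigmented layer had more Bmp4 and Bmp7 RNA than the pigmented layer. With edgeR's quasi-likelihood test on summed counts and Benjamini-Hochberg adjustment over 6832 genes, Bmp4 was higher by 2.09 on the log2 scale (SE 0.40, adjusted p = 0.000663) and Bmp7 by 1.70 (SE 0.34, adjusted p = 0.00133), in both libraries. A gene was called when the adjusted p was under 0.05 and the absolute log2 fold change at least 1. Of the 10 genes, 2 were called higher and 0 lower, where 4.00% of all tested genes were called higher and 1.95% lower. In this test 1081 of the 6832 genes had an unadjusted p under 0.05, Id1, Id2, Bmp2 and Bmpr1b among them, and DESeq2 also called 2 of the 10 genes higher and 0 lower.

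Bmp2 had a log2 fold change of 0.97 (SE 0.38, adjusted p = 0.16), and the Id genes Id1, Id2 and Id3 had -1.11, -1.43 and -0.78, none past the threshold. Without the mixed-marker cells 4 genes were called higher and 2 lower, where the shares over all tested genes were 5.59% and 4.42%. Bmp2 then had 1.20 (SE 0.39, adjusted p = 0.0436), Id1 fell by 2.02 (SE 0.43, adjusted p = 0.0013) and Id2 by 3.63 (SE 0.54, adjusted p = 1.24e-05), all by the same edgeR test. Id3 had -1.21 (adjusted p = 0.153) there, and -1.39 (adjusted p = 0.0404) without the 5% of cells with the most UMIs in each library. The ligand differences kept their direction and size in all 3 sets of cells. Bmpr1b was called higher without the mixed-marker cells, but the pigmented layer held 1 Bmpr1b UMI in all. The pooled ratio with all cells was 12.3, from 11 UMIs against 1, with an exact conditional interval of 1.79 to 529.

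Myh11 RNA was present in 60 of 134 and 52 of 215 pigmented cells. Without those cells Id1 passed the threshold at -1.51 (adjusted p = 0.0168, edgeR), and the calls for Bmp4 and Bmp7 remained. Bmpr1a and Bmpr2 had log2 fold changes of -0.42 and -0.60 between the layers and were called in none of these sets of cells.

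The second comparison set the stroma against the epithelium. All 3 ligands were lower in fibroblasts than in the mean of both ciliary layers. Bmp7 was lower by 4.89 on the log2 scale (SE 0.39, adjusted p = 7.22e-11, edgeR), at 2.88 and 3.79 CPM in fibroblasts, against 246 and 167 in the non-pigmented and 64.8 and 66.3 in the pigmented layer. Bmp2 was lower by 3.77 (SE 0.40, adjusted p = 7.74e-09) and Bmp4 by 1.25 (SE 0.34, adjusted p = 0.00437). The Bmp4 call was lost when the cells were clustered more finely, at resolution 2, with -0.73 (adjusted p = 0.094, edgeR). Id4 went the other way and was higher in fibroblasts by 2.94 (SE 0.35, adjusted p = 6.85e-08). Of the 10 genes, 2 were called higher and 3 lower, where 15.1% of all tested genes were called higher and 9.38% lower.

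Bmpr1b was also called higher in fibroblasts, at 1.92 (SE 0.66, adjusted p = 0.0264, edgeR), but it lost the call without the mixed-marker cells at 1.56 (adjusted p = 0.0875), and also without the 5% of cells with the most UMIs. It was also lost under DESeq2, without the filter on low counts, at a mitochondrial limit of 15% and at other clustering resolutions, with log2 fold changes of 0.43 to 1.91. Id1, Id2 and Id3 had log2 fold changes of 0.75, 0.37 and 1.04 with all cells, and none of the 3 passed. Without the mixed-marker cells they had 1.19, 1.47 and 1.25, and all passed, so that 4 genes were called higher and 3 lower, where 15.2% and 8.55% of all tested genes were. Bmpr1a differed by -0.02 (SE 0.29).

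The third comparison set the retinal pigment epithelium, the pigmented layer behind the retina, against the pigmented epithelium in front of it. Bmp4 was higher in the retinal pigment epithelium by 2.27 (SE 0.40, adjusted p = 0.000112, edgeR), at 171 and 169 against 31.8 and 60.3 CPM. Id1 was lower by 2.30 (SE 0.41, adjusted p = 0.000112), at 39.8 and 65.8 against 262 and 391, and Id3 by 2.60 (SE 0.53, adjusted p = 0.000713), at 359 and 341 against 2703 and 2612. Id2 differed by -0.32 (SE 0.45, adjusted p = 0.776). Id1 and Id3 thus differed beyond the spread between libraries, and for Id2 no difference was called. Of the 10 genes, 1 was called higher and 2 lower, where 5.68% of all tested genes were called higher and 5.43% lower. Red blood cell markers differed between these classes as well. The summed level of the 5 markers was 11168 and 31842.5 CPM in retinal pigment epithelium, against 71.9 and 71.5 CPM in pigmented epithelium, and all 5 were detected in the retinal pigment epithelium of both libraries. Their part in the result was not tested. The 3 calls were also made without the Myh11-positive pigmented cells and without the deepest 5% of cells.

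The fourth comparison set Muller glia against the mean of the other neural retina classes, which were amacrine cells, both bipolar classes, cones and rods. All 4 Id genes were called higher in Muller glia. Id1 was higher by 4.00 (SE 0.30, adjusted p = 1.88e-12, edgeR), Id3 by 3.41 (SE 0.33, adjusted p = 5.15e-10), Id2 by 2.93 (SE 0.35, adjusted p = 3.9e-08) and Id4 by 2.28 (SE 0.37, adjusted p = 1.23e-05). Of the 10 genes, 5 were called higher and 0 lower, where 15.6% of all tested genes were called higher and 4.76% lower. The Id4 value weighs each class equally on the log scale. Amacrine cells were themselves above Muller glia in Id4, and with the UMIs of the other classes pooled the ratio was 1.17 (exact conditional interval 0.846 to 1.58). Bmpr1b, the fifth call, had a pooled ratio of 11.9 (7.90 to 17.9), from 46 UMIs in Muller glia and 56 in the other classes. Bmp2 had a log2 fold change of 2.17 (adjusted p = 0.0561) from 0 and 9 UMIs in Muller glia, and Bmp4 and Bmp7 did not pass. The red blood cell marker Hbb-bs differed here too, at 12999 and 6361 CPM in Muller glia. It stood at 12808 and 34.2 in cones, at 5219 and 43.7 in amacrine cells and at no more than 210 in rods and both bipolar classes. The part of red blood cell RNA in these results was not tested.

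**Figure D4:**
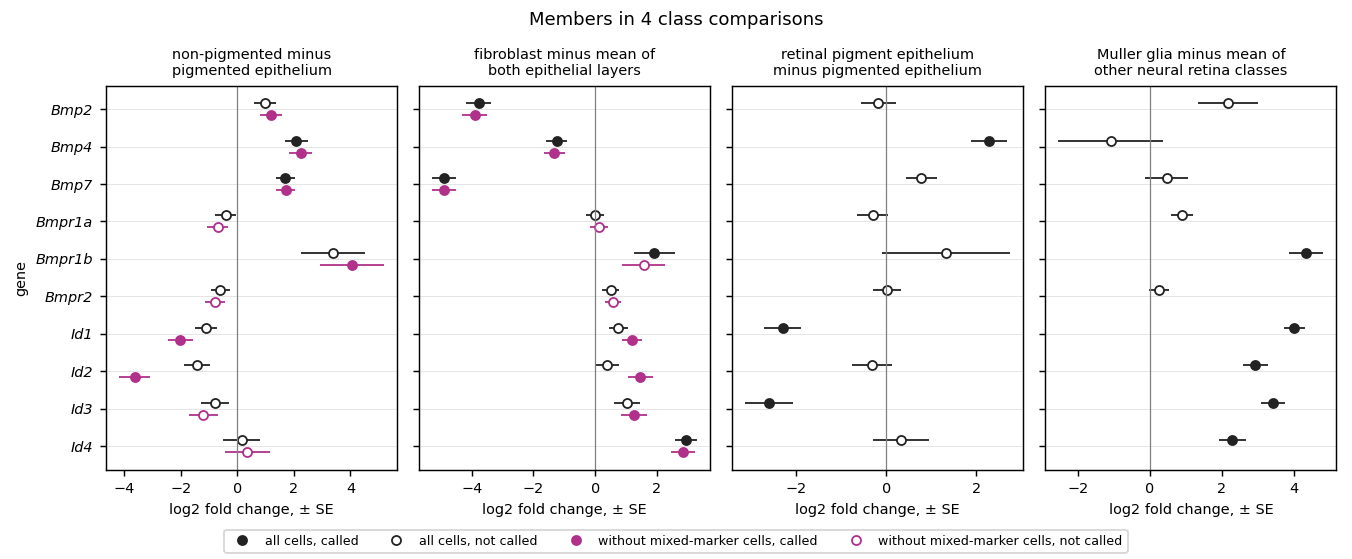
Log2 fold changes (horizontal axes, bars ± SE) of the 10 genes in the 4 class comparisons, from the edgeR fit over 42 summed profiles. Filled points were called and open points were not, and purple points leave out the mixed-marker cells, without which Id2 moves to -3.63 between the layers.

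Tests of each class against the mean of the other classes used the same fit, and in them 4.58% to 22.2% of all tested genes were called higher, depending on the class, and 0.673% to 6.73% lower. Non-pigmented epithelium was called higher for 7 of the 10 genes (16.9% of all genes), pigmented epithelium for 7 (16.6%) and retinal pigment epithelium for 5 (17.9%). Without the mixed-marker cells, non-pigmented epithelium was called higher for 5 genes (14.4% of all genes) and lower for 1, Id2 (1.96%), and Id1 and Bmpr1a no longer passed. Fibroblasts were called higher for 8 of 10 (22.2%) and vascular endothelium for 6 (16.7%). Bmp2 and Bmp4 were called higher in 7 classes each and Bmp7 in 5, and no ligand was called lower in any class. With many classes at or near 0, a lower call could hardly arise and a higher call needed few UMIs. Fibroblasts were called higher for Bmp2 at 5.93 and 19.2 CPM, while all kept cells together had 26.0 and 28.2. These ligand counts therefore do not measure high levels. The same limit holds for Bmpr1b, which was at 0 in 9 and 8 classes of libraries 1 and 2. It was called higher in non-pigmented epithelium at 6.22 and 5.03 CPM. Id4 was at 0 in 5 and 3 classes, and neither gene was called lower in any class. Id1, Id2 and Id3 were called lower in 8, 7 and 7 classes, and amacrine cells, rods and both bipolar classes were among them for each of the 3 genes. Fold changes from these tests are not given for genes at 0 in several classes, since the fitted mean of the rest then depends on the prior count. Bmp2, for instance, was at 0 in 10 classes of library 1.

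Other genes of the pathway were read from lists chosen with earlier results of these data known. Between the ciliary layers, where 4.00% of all tested genes were called higher and 1.95% lower, 1 of 9 other receptor and co-receptor genes was called higher in the non-pigmented layer. It was Bambi, a decoy receptor that is itself a BMP target, at 325 and 335 CPM against 41.2 and 57.3 (log2 fold change 2.83, SE 0.44, adjusted p = 4.2e-05, edgeR). Among 14 tested secreted antagonists, 2 were called higher and 0 lower. They were Nbl1, a DAN-family BMP antagonist, at 464 and 492 against 174 and 121, and Chrdl1, which binds BMP4, at 95.4 and 82.4 against 22.4 and 34.3. None of the 6 tested other ligands, 10 SMAD or regulator genes and 3 E protein genes was called by edgeR or by DESeq2. In that order, 0, 1 and 1 of them had an unadjusted edgeR p under 0.05. Of 9 other targets, 2 were called higher, Msx1 and Bambi, and 0 lower, also by DESeq2, and 2 had an unadjusted edgeR p under 0.05. Without the mixed-marker cells the antagonists called were 3 higher, with Twsg1 added, and 1 lower, Nog. Smad9 was then called lower, Tcf4 higher and, among the targets, Hey1 lower, beside 5.59% higher and 4.42% lower of all tested genes.

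In fibroblasts against both layers, 8 of 14 antagonists were called higher and 1 lower, beside 15.1% higher and 9.38% lower of all tested genes, and 6 of 13 and 1 without the mixed-marker cells. Fst, which encodes the activin and BMP binder follistatin, stood at 74.3 and 41.4 CPM, against 1.04 and 2.01 in the non-pigmented and 1.18 and 0 in the pigmented layer. Sostdc1, a secreted BMP and Wnt modulator, stood at 96.2 and 192, against 89.1 and 62.3 and against 23.6 and 34.3. The gene that was lower was Chrdl1, at 15.4 and 14.3. Of 9 co-receptors, 4 were called higher, among them Eng (46.7 and 64.1) and Acvrl1 (32.3 and 41.4), a co-receptor and a receptor known from endothelium, and Tmem100 (196 and 208). Of 6 tested other ligand genes, 3 were called higher and 1 lower. Gdf10, a divergent member of the family, had 64.4 and 99.0 against at most 5.03 in either layer, and Bmp1, which encodes a protease and not a BMP ligand in spite of its name, had 66.6 and 61.7. Of the other BMP targets 5 of 9 were called higher, Smad7, Hey1, Msx1 and Atoh8 among them. Of the SMAD or regulator genes 3 of 10 were called higher, and Smad7 is on both lists. Without the mixed-marker cells these 3 were Skil, Ski and Smad7. The median log2 fold change of the 9 targets was 1.63, beside 0.11 over all tested genes.

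In the retinal pigment epithelium against the pigmented epithelium, antagonists split, with 4 called higher and 4 lower of 14, beside 5.68% and 5.43% of all tested genes. Nog, which encodes the BMP antagonist noggin, had 132 and 85.6 against 20.0 and 11.9 CPM, Sostdc1 had 357 and 147 against 23.6 and 34.3, and Crim1, a transmembrane BMP binder, had 526 and 494 against 67.2 and 99.1. Nbl1 had 7.68 and 9.90 against 174 and 121, and Fstl1 had 108 and 138 against 557 and 636. Of the 9 other targets, 0 were called higher and 3 lower, with a median log2 fold change of -2.02 beside -0.03 over all tested genes. In Muller glia against retinal neurons, 6 of 14 antagonists, 3 of 9 co-receptors and 4 of 9 other targets were called higher and 0 lower, also 0 lower by DESeq2, beside 15.6% higher and 4.76% lower of all tested genes. Bambi, which is on both the co-receptor and the target list, had 193 and 270 CPM in Muller glia. Nbl1 had 274 and 177.

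Id1, Id2 and Id3 also went along with early-response genes. These genes, such as Fos, Jun, Egr1 and Atf3, are known to rise when tissue is digested with collagenase at body temperature, as was done here. The 18 genes of this list summed to more CPM in library 2 than in library 1 in every one of the 21 classes. They stood at 13522 and 32030 in Muller glia and 11012 and 26163 in fibroblasts, against 1448 and 3260 in rods and 1593 and 3498 in retinal pigment epithelium. Non-pigmented epithelium stood at 5032 and 8802 and pigmented epithelium at 3809 and 7545. In fibroblasts against the layers 18 of 18 were called higher (15.1% of all tested genes), and in Muller glia against neurons 16 of 18 (15.6%). In retinal pigment epithelium against pigmented epithelium 2 of 18 were called lower (5.43%). Between the layers 1 of 18, Ier2, was called higher in the non-pigmented layer (4.00%). The last 2 counts rest on 2 genes and 1 gene and are not read as a difference of the list.

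Across the 21 classes, the correlation of log2 levels (with 10 CPM added) of Id1 and the summed list was 0.69 in library 1 and 0.73 in library 2 (Pearson). It was 0.57 and 0.72 for Id2, 0.61 and 0.70 for Id3, and 0.15 and 0.36 for Id4. For the ligands it lay between -0.29 and 0.17. The classes share libraries and differ in depth, so these values describe the classes and carry no test. The part of the early-response genes in the levels of Id1, Id2 and Id3 was not tested.

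**Figure D5:**
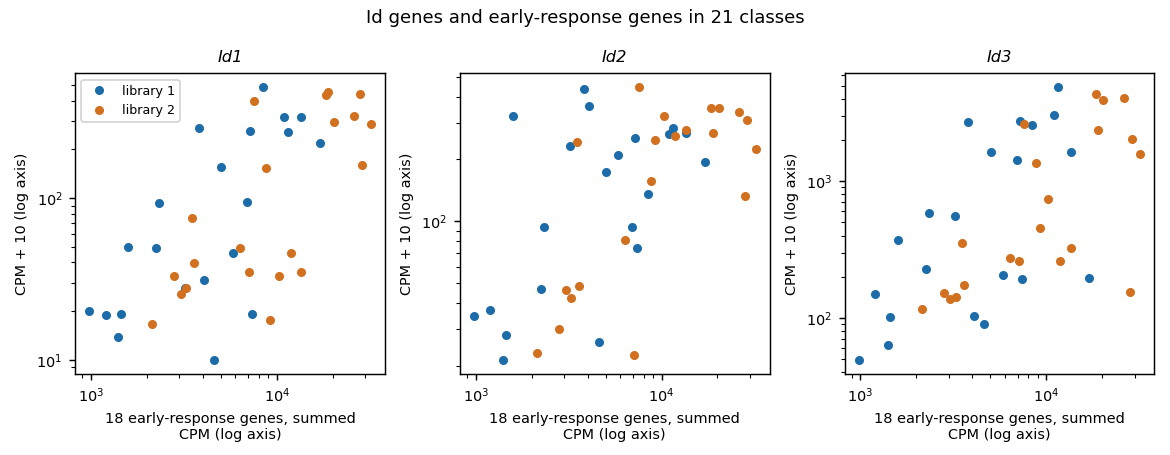
Levels of Id1, Id2 and Id3 (CPM + 10, log axes) against the summed level of 18 early-response genes (CPM, log axis), with a point for each of the 21 classes in library 1 (blue) and library 2 (orange). Classes with high early-response sums tend to have high Id levels, with Pearson correlations of 0.57 to 0.73 on the log scale.

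Among the 10 genes themselves, Id1 and Id3 had Pearson correlations of 0.87 and 0.77 over the classes in libraries 1 and 2, and Id2 and Id3 had 0.67 and 0.77. By rank (Spearman) these were 0.88 and 0.71 for Id1 and Id3, and 0.66 and 0.87 for Id2 and Id3. The ligand pairs had Pearson correlations of 0.76 and 0.75 for Bmp2 and Bmp4 and 0.79 and 0.68 for Bmp2 and Bmp7. For Bmp4 and Bmp7 they were 0.73 and 0.60. By rank, Bmp2 and Bmp4 had 0.57 and 0.71, and Bmp2 and Bmp7 had 0.50 and 0.42. The lowest rank correlations of these pairs were 0.39 and 0.26, for Bmp4 and Bmp7. Between ligands and Id genes, Bmp2 had Pearson correlations of 0.38 and 0.46 with Id1 and 0.46 and 0.47 with Id2. With Id3 it had 0.48 and 0.49. Bmp4 had 0.42 and 0.48 with Id1, 0.42 and 0.48 with Id2 and 0.45 and 0.54 with Id3. Bmp7 had 0.13 and 0.05 with Id1, 0.26 and 0.15 with Id2 and 0.26 and 0.15 with Id3, and no ligand passed 0.14 with Id4. Between the libraries, the pattern of each gene over classes had a correlation of 0.68 for Bmpr2 and from 0.83 to 0.95 for the other 9. In a ranking of 7508 other genes by the lower of the correlations in the 2 libraries, the genes most like Bmp2 were Gsta3 (0.88), Gja1 (0.87) and Plin4 (0.85). Those most like Bmp4 were Nid2 (0.90), Tgfbr3 (0.84) and Gja1 (0.82), and those most like Bmp7 were Pde1c (0.84), Ociad2 (0.82) and Aass (0.80). For the receptors the nearest genes were Ryk for Bmpr1a (0.83), Sema5a for Bmpr1b (0.84) and Sptbn1 for Bmpr2 (0.84). For the Id genes they were Vcl for Id1 (0.83), Timp2 for Id2 (0.84), Lamb2 for Id3 (0.92) and Cdc42ep4 for Id4 (0.83), and Egr1, itself on the early-response list, was the next for Id1 (0.82).

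In position, Bmp2, Bmp7 and Id1 lie on chromosome 2 of GRCm38, Bmp4 and Bmpr1a on chromosome 14, and the other 5 on chromosomes 1, 3, 4, 12 and 13. Opposite-strand genes overlap Bmp4 (Gm15217 and Gm15222), Bmpr1a (Gm17110) and Id4 (A330033J07Rik and Gm49291) in the annotation. Whether counting used strand is not given in the sources used here, so reads of these pairs may not be told apart. On the same strand, Gm38125 overlaps Bmpr2 and is not among the genes of the count matrices.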

How the data were processed

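The authors deposited UMI counts per gene and cell barcode for each library, as raw whole numbers with no normalization, in a Cell Ranger format whose file header gives software version 3.1.0. Per the submitters' processing notes, CASAVA 1.8, Cell Ranger, Seurat and the builds mm10 and GRCm38 were used, with no roles given. A second deposited matrix of each library held the same counts, with 0 entries differing. Totals were 22510387 and 30683405 UMIs, and every barcode held at least 500. The labels' protocols describe collagenase digestion of pooled tissue.

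The cell filter asked for 500 or more genes and a mitochondrial share of UMIs no higher than 30%. A random group of 16809 genes, holding all 220 markers of 32 cell types, served for clustering with scanpy 1.11.5 (2000 variable genes, 30 components, 15 neighbours, Leiden resolution 1). A marker counted in a cluster when its mean reached 0.5 per 10000 UMIs and was 4 or more times the median over the other clusters, and a name needed 3. This naming rule was written after the clusters were seen, so a difference from the study's own cell types may come from the names. No doublet caller was run.

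Counts were summed per class and library into 42 profiles and tested with edgeR 4.0.16 (R 4.3.3), using TMM scaling, the filterByExpr filter, which left 6832 held-out genes, and library as the replicate block, since all classes of a library come from the same pool of eyes. The fit had 20 residual degrees of freedom and was checked on simulated data. Levels are CPM with exact Poisson intervals, and 3 counts per library set the limit for a count of 0. Intervals cover counting error only. Neighbours in an order of levels were said to overlap when the ranges of their library values did. Called pathway genes were named when their higher class held 50 or more UMIs in both libraries, up to 4 per list and direction, and other genes by the 3 highest correlations with a member. Other genes named beside a count of 5 or fewer, such as Twsg1, were chosen after their values were seen. The 10 genes and the lists were chosen with earlier results of these data known. Alternatives were RLE scaling, DESeq2 1.42.0, no low-count filter, a 15% mitochondrial limit, resolutions 0.5 and 2, another random group of genes, a minimum of 50 cells, no block, each library alone and 3 choices of cells made after the data were seen.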

Additional observations from a re-analysis of the deposited data

How the results depend on the processing

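Of the 15 calls in the 4 comparisons, 13 kept their direction and call under every alternative with a test, and the exceptions were Bmpr1b and Bmp4 in fibroblasts. Between the layers, 4 genes were called higher without the mixed-marker cells and 4 without the 5% deepest cells. Genes called lower there numbered 2 with no filter on low counts, 2 at resolution 2, 1 at resolution 0.5, 1 with another random group of genes, 1 without Myh11-positive cells, 2 without mixed-marker cells and 3 without the deepest cells, against 0 with all cells. In fibroblasts, 1 gene was called higher under DESeq2, with no filter, at the 15% mitochondrial limit and at resolutions 2 and 0.5, and 4 without the mixed-marker or the deepest cells. Each library alone, with no test, gave 1 to 2 there. Beyond the shares given above, the share of all tested genes called in each setting is not printed beside these counts. The counts therefore do not show whether these genes moved apart from all tested genes. Of 130 single fold changes, 42 without library 1 and 59 without library 2 moved by more than 1 SD between the libraries. No called fold change changed sign. The fold changes from a single library were computed in another way than those of the joint edgeR fit. A joint value midway between the 2 libraries would lie within 1 SD of each. The 42 and 59 therefore cannot tell dependence on a library from the change of calculation. DESeq2 called 39 class and gene pairs lower, against 24 by edgeR. Without the replicate block the counts higher and lower were 2 and 0 between the layers, 2 and 3 in fibroblasts, 1 and 2 in retinal pigment epithelium and 5 and 0 in Muller glia, so the block changed none of these counts.

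Signs turned for uncalled values near 0. Bmpr1a in fibroblasts had 0.11 without the mixed-marker cells and 0.076 without the deepest. In retinal pigment epithelium Bmpr1b had -0.32, Bmpr2 -0.30 and Id4 -0.50 at the 15% limit, and Bmpr2 had -0.023 under RLE and -0.022 under DESeq2. Bmp7 in Muller glia had -0.014 without the deepest cells. Levels moved beyond the spread between libraries for Bmp4 in non-pigmented epithelium (166 at the 15% limit, 210.4 without mixed-marker cells), Id2 in pigmented epithelium (398 at the 15% limit, 442 without the deepest cells) and Id4 in amacrine cells (143 and 154). Thinning to 1000 UMIs gave mean shares of cells of 21.1% for Bmp2, 14.5% for Bmp4 and 18.7% for Bmp7 in non-pigmented epithelium, 9.91% for Bmpr1a and 30.5% for Id2 in pigmented epithelium, 5.94% for Bmpr1b in Muller glia, 26.9% for Bmpr2 and 37.7% for Id1 in vascular endothelium, 92.9% for Id3 in smooth muscle-like cells and 9.31% for Id4 in amacrine cells. Thinning lowers shares by its construction, and for the other changes the cause was not tested. Depth limits Bmpr1b most, with 93 and 134 UMIs in all.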
